A study of Mus musculus with 8 samples.

Results

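Dissociation of 4T1 tumours at 37C was compared with dissociation at 4C while actinomycin D was present in both. The comparison holds 4 of the 8 libraries of the study, those labelled with inhibitor: A and B at 37C and A and B at 4C. Cells with a deposited annotation were used, 307 of 654, of which 219 came from 37C and 88 from 4C, and their raw counts were summed per library and per annotated cell type. The tumours grew for 10 days under the skin of Balb/c mice from injected 4T1 cells, a mouse mammary carcinoma line. Both groups were digested for 1 h with a protease of Bacillus licheniformis and actinomycin D at 2 nM. The 37C tubes were mixed in a dissociator with heaters and the 4C tubes in one without, so temperature and instrument cannot be told apart. Each condition was 1 suspension from a pool of 6 tumour pieces from different mice, and the letters A and B name its aliquots. All p-values below therefore measure the spread between aliquots and not between mice. The other 4 libraries, dissociated at 37C and 4C without the inhibitor, entered the same model and are used where the temperature effects with and without it are compared.

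Actinomycin D intercalates into DNA and blocks RNA polymerases, and it is added to tissue digestions to keep cells from making new transcripts. Immediate-early genes such as Fos, Jun and Egr1 encode transcription factors that are induced within minutes of a stress, and their RNAs decay fast. Tumour-associated macrophages take up debris, make complement and chemokines and present antigen, whereas T cells and NK cells carry the cytotoxic granules of the tumour's immune infiltrate.

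The 2 libraries at 37C were deeper than those at 4C. All listed barcodes held 801510 and 621009 UMIs (unique molecules) at 37C and 55698 and 92784 at 4C. Annotated cells held 199929 and 195714 UMIs at 37C and 23212 and 44339 at 4C. A median cell had 1618 and 1239 UMIs with 974 and 768 genes at 37C, and 558 and 618.5 UMIs with 417 and 458.5 genes at 4C. With every cell thinned to 200 UMIs, the median number of genes was 173 and 170.5 at 37C and 172 and 171 at 4C, and no cell was too shallow to be thinned. The 4 libraries shared 5 to 13 barcodes in pairs, and 0 of these were annotated in both. A chi-square of aliquot A against aliquot B over genes gave 2.05 per degree of freedom at 37C and 1.53 at 4C. Independent sampling of UMIs would give a value of 1. UMIs come in whole cells, however, so the sampling of cells can also raise the value. Whether the aliquots differed beyond that was not tested.

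Macrophages took a larger share of the annotated cells at 37C, and T cells a larger share at 4C. Macrophages were 33 of 107 cells (30.8%, exact 95% interval 22.3 to 40.5) and 24 of 112 (21.4%, 14.2 to 30.2) at 37C. At 4C they were 1 of 34 (2.94%, 0.074 to 15.3) and 5 of 54 (9.26%, 3.08 to 20.3). T cells, the lymphocytes that carry the T-cell receptor, were 10.3% (5.25 to 17.7) and 8.93% (4.37 to 15.8) at 37C. They were 47.1% (29.8 to 64.9) and 37.0% (24.3 to 51.3) at 4C, so the groups did not overlap and the intervals did not touch. Tumour cells were 51.4% and 67.9% at 37C and 41.2% and 27.8% at 4C. NK cells, cytotoxic lymphocytes without that receptor, were 7.48% and 1.79% at 37C and 8.82% and 25.9% at 4C. All 4 types were thus ordered by temperature in both aliquots, but with 2 against 2 libraries a two-sided exact permutation test cannot give a p below 0.333, and none was run. Intervals here and below cover counting error only. The shares also cover annotated cells only. At 37C 117 and 206 barcodes of 200 to 5000 UMIs had no annotation, and so did 41 and 24 barcodes over 5000 UMIs. At 4C these were 17 and 28, and 0 in both libraries. What the barcodes without annotation would change in the shares was not tested.

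**Figure D1:**
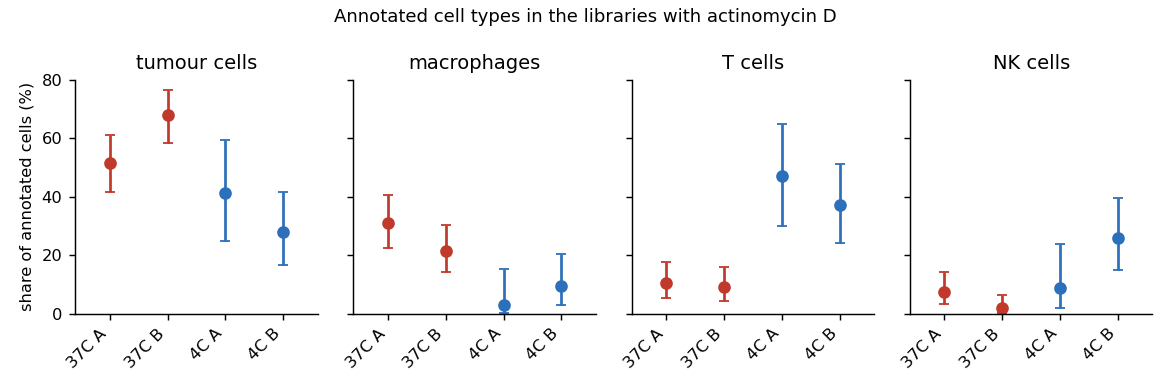
Share of annotated cells (%) taken by each cell type in the 4 libraries with actinomycin D; points are libraries and bars are exact 95% binomial intervals. Macrophages lie between 21.4% and 30.8% at 37C and between 2.94% and 9.26% at 4C, and T cells lie between 8.93% and 10.3% and between 37.0% and 47.1%.

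The annotation was checked against marker genes within each type. T-cell markers (Cd3e, Trbc2, Lck and 11 others) made up 1.26% and 1.45% of the UMIs of annotated T cells at 37C and 1.20% of them in both libraries at 4C. NK-cell markers made up 1.71% and 1.76% of the UMIs of NK cells at 37C and 2.03% and 1.94% at 4C. Tumour epithelial markers made up 0.413% and 0.461% of the UMIs of tumour cells at 37C and 0.615% and 0.476% at 4C, and Epcam, Cdh1, Krt5 and Krt14, which mark many epithelia, had 0 UMIs in these cells at both temperatures. The UMIs of the list came from 5 of 11 members at 37C and 4 of 11 at 4C, among them the keratins Krt8 and Krt18.

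The cells annotated as macrophages did not look alike at the 2 temperatures. Macrophage markers (Csf1r, C1qa, Apoe, Lyz2, Arg1 and 12 others) made up 5.21% and 4.38% of their UMIs at 37C, and 2.05% and 1.59% at 4C. A median macrophage at 37C had 10 of the 17 markers in each library, with a range of 2 to 15 in library A and 0 to 15 in library B. The single cell in library A at 4C had 9 markers among 1269 UMIs, with 7 UMIs of Apoe, 4 of Lyz2 and 1 of Adgre1. In library B at 4C, 1 of the 5 cells had 6 markers among 731 UMIs, with 14 UMIs of Lyz2 and 1 of Csf1r, the receptor of the macrophage growth factor. The other 4 cells had 1 to 3 markers, among 219, 318, 609 and 769 UMIs. The number of markers seen also depends on depth. The median depth of annotated macrophages was 1600 UMIs at 37C and 670 at 4C. Of the 4 cells with few markers, 1 had 1 UMI of macrophage markers and 4 of neutrophil markers (S100a9, Csf3r, Cxcr2 and Mmp9). Another had 2 UMIs of the basophil protease Mcpt8 and 10 of the chemokine Ccl6. The remaining pair had 7 and 5 UMIs of Irf8, 10 and 8 of Ly6c2 and 3 and 14 of Klk1, genes singled out after their values were seen. Over all 6 cells at 4C, C1qa, C1qb, C1qc, Ms4a7, Arg1 and Pf4 were at 0. The label macrophage at 4C thus rests on few cells, 2 of which carried more than 3 markers. At 37C, 2 of the 33 macrophages of library A held 780 of the 781 UMIs of mast-cell and basophil markers in that type, with 0.479% of their UMIs in macrophage markers against 5.56% in the others. Leaving out cells of this kind, an alternative chosen after seeing the data, kept all 61 genes called below and gave 40 higher and 33 lower. The treatment of doublets is not given in the sources, and none were removed here.

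In the sum over all annotated cells, 34 of 3391 tested genes were higher at 37C (1.00%) and 27 were lower (0.796%) at an adjusted p under 0.05 in edgeR's quasi-likelihood test, here called genes. At an unadjusted p under 0.05 there were 463. The genes that rose were led by those of macrophages: the arginine-degrading enzyme Arg1, the complement subunits C1qa, C1qb and C1qc, the chemokines Ccl2, Ccl6, Ccl7 and Ccl24, the lipid carrier Apoe, the mannose receptor Mrc1, the class II gene H2-Aa and the platelet factor Pf4. The genes that fell were led by those of T cells and NK cells, among them Ms4a4b, Ptprcap, Gimap4, Selplg, Gzma and Cd8b1. Of the 34 higher genes, 26 had more of their 37C UMIs in macrophages than in any other type and 8 in tumour cells, and for 33 of them that type held over 50% of the UMIs. Of all annotated UMIs at 37C, macrophages held 27.4% and 17.7% and tumour cells 59.0% and 76.7%. Of the 27 lower genes, 16 had more of their 4C UMIs in T cells than in any other type and 8 in NK cells, and 3 were tied (Pdcd4, Hcst and Cd7). For 10 of the 27 no type held over 50%. Of all annotated UMIs at 4C, T cells held 24.4% and 21.8%, NK cells 5.72% and 19.1% and tumour cells 64.4% and 53.1%. How many of all 3391 tested genes each type led was not counted. The cell shares of the leading types moved in the same direction as the genes. In a sum over cells, more cells of a type and more RNA per cell cannot be told apart. Without 4C library B, 9 genes were higher and 1 lower, and 7 of the 61 calls remained, while without 4C library A 25 were higher and 23 lower. Without 37C library B, 46 were higher and 16 lower.

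**Figure D2:**
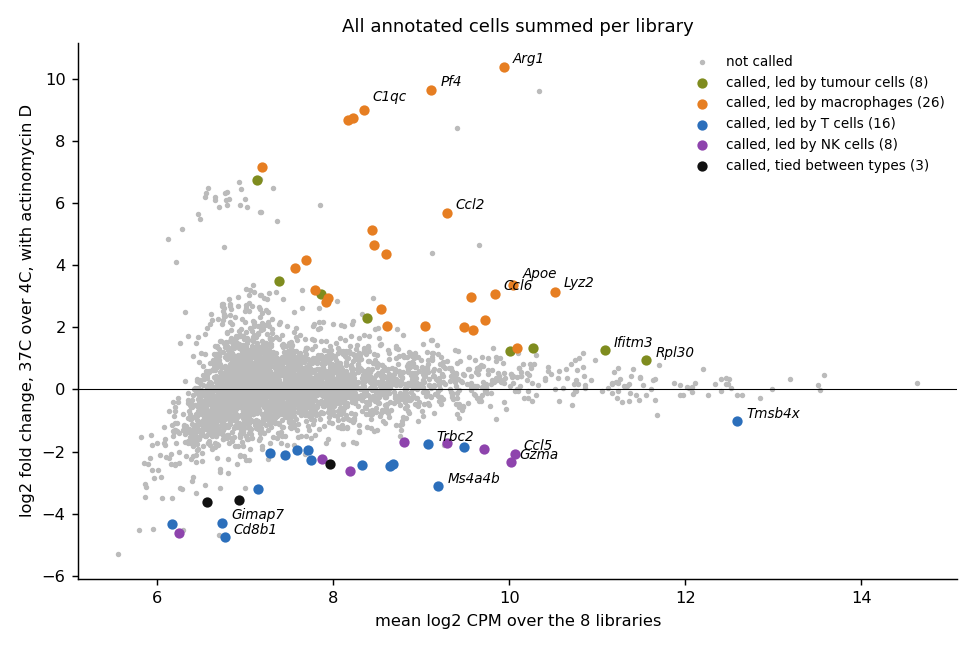
Log2 fold change of 37C over 4C with actinomycin D against the mean log2 CPM over the 8 libraries, 1 point per tested gene; coloured points are the 61 called genes, coloured by the cell type with more of their UMIs than any other at the temperature where they were higher, black where types were tied. The 26 genes led by macrophages lie above 0, from Arg1 downwards, and the 24 genes led by T cells or NK cells and the 3 tied ones lie below 0.

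Arg1, which turns arginine into ornithine and marks many tumour macrophages, had 336 and 238 UMIs at 37C (1681 and 1216 CPM, the UMIs scaled to a common total of the annotated cells, or below of a cell type) and 0 in both libraries at 4C. In annotated cells, with a floor of 3 counts over the 4C group, it was at least 32.7-fold higher at 37C. The adjusted p was 3.23e-06 in edgeR's quasi-likelihood test. Within macrophages it had 5925 and 6585 CPM at 37C and 0 UMIs at 4C, at least 8.07-fold higher. It was seen in 41 of 57 macrophages at 37C and in 0 of 6 at 4C, where the exact interval reaches 45.9%. At 37C, 14 of 131 tumour cells also held an Arg1 UMI (10.7%, median depth 1557 UMIs against 1600 in macrophages), at 84.7 and 46.7 CPM. So did 3 of 21 T cells (14.3%, exact interval 3.05 to 36.3, median depth 918) and 2 of 10 NK cells (20.0%, 2.52 to 55.6, median depth 1081.5). The share in tumour cells was thus not above that in T cells or NK cells. The source of the Arg1 UMIs outside macrophages was not tested. At 4C no cell of any annotated type held one. Arg1 was not absent from the 4C libraries, however. Over all listed barcodes, annotated or not, it had 896 and 735 UMIs at 37C and 5 and 8 at 4C with inhibitor. The log2 fold change there was 3.84 (SE 0.32, adjusted p 1.69e-10, edgeR's quasi-likelihood test), below the bound in annotated cells.

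Of the complement genes, C1qc had 109 and 111 UMIs at 37C, C1qa 96 and 86 and C1qb 87 and 89, and all of them had 0 at 4C. They encode the chains of C1q, the recognition molecule of the classical complement pathway, which resident macrophages make. In the sum over annotated cells their lower bounds were 12.5-fold for C1qc (adjusted p 0.00136), 10.4-fold for C1qa (0.00214) and 10.0-fold for C1qb (0.006) in edgeR's quasi-likelihood test. At 37C 20 of 57 macrophages held C1qa (35.1%, exact interval 22.9 to 48.9), 22 held C1qb and 23 held C1qc. At 4C 0 of 6 held any of them, and the exact interval there reaches 45.9%, so the intervals overlap. Without the inhibitor their temperature effects were 0.62 for C1qc, 1.27 for C1qa and 0.42 for C1qb (log2), with adjusted p of 0.815, 0.565 and 0.901. The difference between the effects with and without inhibitor was not called for any of these genes (adjusted p 0.37 for each).

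Pf4, a chemokine of platelets and of some macrophages, had 250 and 93 UMIs at 37C and 0 at 4C, at least 19.5-fold higher (adjusted p 0.006). The chemokine Ccl2, which draws monocytes, had 166 and 139 UMIs at 37C (830 and 710 CPM) and 1 and 0 at 4C, a ratio of 52.1 with a counting interval of 9.28 to 2064 (adjusted p 0.000466). Ccl7, a close relative, had 134 and 104 UMIs at 37C and 2 and 0 at 4C, a ratio of 20.3 (5.56 to 169, adjusted p 0.00144). Ccl24, an eosinophil attractant, had 77 and 70 at 37C and 0 and 1 at 4C (ratio 25.1, 4.44 to 998, adjusted p 0.00266). Mrc1 had 113 and 95 at 37C and 1 and 0 at 4C (ratio 35.5, 6.30 to 1409, adjusted p 0.00286). In each of these genes both libraries at 37C lay far above both at 4C. Of all 3391 tested genes, 26.6% had both libraries at 37C above both at 4C by any margin. The width of the intervals comes from the 1 or 2 molecules at 4C. The intervals take UMIs as independent, but at 37C 1 macrophage held 57 UMIs of Ccl24 and 1 held 49 of Ccl7. For Ccl2 and Mrc1 the highest counts in 1 macrophage were 26 and 14. Ccl24 was seen in 18 of 57 macrophages at 37C and in 1 of 6 at 4C.

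Other macrophage genes were present at 4C at lower levels. Ccl6 had 1601 and 1374 CPM at 37C and 129 and 226 at 4C, a log2 fold change of 3.07 (SE 0.38, adjusted p 0.000107). Apoe had 1991 and 1334 CPM at 37C and 345 and 67.7 at 4C, a log2 fold change of 3.37 (SE 0.54, adjusted p 0.00136). H2-Aa, a chain of the class II molecules that present peptides to T cells, had 620 and 925 CPM at 37C and 86.2 and 113 at 4C (2.99, SE 0.56, adjusted p 0.00544). Lyz2, lysozyme, had 3701 and 1022 CPM at 37C and 215 and 338 at 4C (3.13, SE 0.61, adjusted p 0.00706). The aliquots at 37C differed from each other more in Lyz2 and Pf4 than in Ccl2 or Mrc1, with library A higher. The groups did not overlap in any of these genes, which held in the higher direction for 26.6% of all 3391 tested genes. The further called genes of this side included the receptors Csf1r, Fcgr2b and Fcer1g, the chemokine Ccl9, the complement regulator Cfp, the cross-linking enzyme Tgm2 and the endocytic adaptor Dab2.

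The lists and their members were chosen with earlier results of these data known, so list counts here and below are not independent support. Read by list, 11 of 15 tested macrophage markers (17 members) were called higher and 0 lower, against 1.00% of all genes. Their median log2 fold change was 3.37, or 3.32 with the 5 genes that had no UMI at 4C set at their bound, and the median of all tested genes was 0.07. Those 5 genes (Arg1, C1qa, C1qb, C1qc and Pf4) are all among the 11 called. They could pass the expression filter only through the other libraries, where they were present. Of 19 lysosomal genes, 5 rose (Ctsb, Ctss, Lgmn, Psap and Cd68, proteases, an activator of lipid hydrolases and a membrane protein of the lysosome), with a median of 0.96. Of 6 MHC class II genes, H2-Aa and H2-Ab1 rose, with a median of 1.92. Cd68 is also a member of the macrophage list. With macrophages left out of the sums, 0 of 12 lysosomal and 0 of 5 class II genes were called, with medians of 0.48 and -0.29. With the equal cell type weights described below, 0 members of these 2 lists were called, with medians of 0.30 and 0.94. Within tumour cells 0 of 10 and 0 of 5 were called, with medians of 0.02 and -0.11. Without 4C library B 4 of 16 macrophage markers and 0 members of the lysosomal and MHC class II lists were called, and without 4C library A the median of the macrophage markers was 5.69. Without 37C library A 1 of 14 lysosomal genes was called. Ifitm3, a membrane protein that restricts viruses, was the called member among 16 interferon-stimulated genes, and the list's median was 0.09. Promoter windows of some higher genes and of Ms4a4b are shown, with the letters of PU.1, a master regulator of macrophage genes. A part of PU.1 in the rise of these genes was not tested. RefSeq promoters on GRCm38.p6 were at hand for 23 of the 34 higher and 19 of the 27 lower genes, and the 250 bases before the start were read on both strands. Capitals mark the PU.1 letters GAGGAAGT (or their reverse complement) and, where present, a match to the NF-kB consensus. The windows are chr5:90772185-90772434 on the plus strand for Pf4, chr4:136892915-136893164 on the minus strand for C1qc and chr4:136886201-136886450 on the minus strand for C1qb. The window of Ms4a4b, the lower gene with the lowest p, is chr19:11443308-11443557 on the plus strand.
Pf4: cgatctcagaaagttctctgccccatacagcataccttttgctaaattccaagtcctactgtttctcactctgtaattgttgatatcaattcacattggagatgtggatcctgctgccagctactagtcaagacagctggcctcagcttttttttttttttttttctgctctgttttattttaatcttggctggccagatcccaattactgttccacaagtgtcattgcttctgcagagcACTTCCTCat
C1qc: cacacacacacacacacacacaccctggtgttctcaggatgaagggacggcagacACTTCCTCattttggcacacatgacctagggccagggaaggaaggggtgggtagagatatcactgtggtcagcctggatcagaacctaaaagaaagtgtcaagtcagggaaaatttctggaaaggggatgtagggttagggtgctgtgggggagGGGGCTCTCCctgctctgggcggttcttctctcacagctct
C1qb: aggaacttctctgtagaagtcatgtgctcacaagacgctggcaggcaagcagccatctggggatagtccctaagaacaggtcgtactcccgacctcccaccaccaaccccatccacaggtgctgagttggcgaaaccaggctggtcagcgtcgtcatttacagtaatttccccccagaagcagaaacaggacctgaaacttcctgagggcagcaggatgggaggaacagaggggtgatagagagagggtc
Ms4a4b: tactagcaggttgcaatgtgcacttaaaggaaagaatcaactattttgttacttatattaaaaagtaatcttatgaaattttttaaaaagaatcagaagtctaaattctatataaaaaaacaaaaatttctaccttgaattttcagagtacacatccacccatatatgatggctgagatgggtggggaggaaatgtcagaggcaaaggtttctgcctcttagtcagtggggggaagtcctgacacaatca

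A gene with several promoters was counted when any of them held the letters. The PU.1 letters stood in Pf4, C1qc and Atp5j, 3 of 23 higher genes with a promoter (13.0%), and in 1 of 19 lower ones (5.26%). They stood in 3.25% of the 2647 tested genes with a promoter and in 2.79% of all 27025 genes with one. In Pf4 the match began 10 bases before the start, in C1qc 195 bases before it. Pf4 and C1qc had most of their 37C UMIs in macrophages, and Atp5j had most of them in tumour cells. The other higher genes with a promoter, Apoe, Lyz2, Mrc1 and Cd68 among them, held no PU.1 letters. The NF-kB consensus was found in 26.1% of higher, 21.1% of lower and 11.4% of tested genes with a promoter, and AP-1 letters (TGANTCA) in 17.4%, 5.26% and 5.78%. C1qb and Ms4a4b held none of the searched letters in this window. The C1q genes lie side by side on chromosome 4 (GRCm38, C1qa at 136895917 to 136898803, C1qc at 136889804 to 136893065, C1qb at 136880129 to 136886187, all on the minus strand).

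8 called genes that rose had most of their 37C UMIs in tumour cells, the type that held 59.0% and 76.7% of all annotated UMIs there. Among them were Ndufb9 and Atp5j, subunits of the respiratory chain and of ATP synthase, the ribosomal protein gene Rpl30, the proteasome activator Psme2, the protease inhibitor Cst3, the splicing cofactor Srrm1 and the complex I assembly factor Tmem126a. Ndufb9 had 1120 and 1415 CPM at 37C and 474 and 586 at 4C (1.33, SE 0.31, adjusted p 0.0244). Rpl30 had 2546 and 3147 at 37C and 1336 and 1804 at 4C (0.94, SE 0.24, adjusted p 0.0456), and was the called member among 77 cytosolic ribosomal protein genes, whose median was 0.18. In the test within tumour cells neither was called, with log2 fold changes of 1.02 (adjusted p 0.144) for Ndufb9 and 0.82 (adjusted p 0.111) for Rpl30.

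Among the lower genes, Ms4a4b, a membrane protein of T cells and NK cells, had 180 and 56.2 CPM at 37C and 905 and 1286 at 4C. Its log2 fold change was -3.12 (SE 0.45, adjusted p 0.000466). Ptprcap, which associates with the phosphatase CD45, had 135 and 143 CPM at 37C and 689 and 857 at 4C (-2.39, SE 0.36, adjusted p 0.000737). Gzma, a protease of cytotoxic granules, had 405 and 189 at 37C and 776 and 2346 at 4C (-2.34, SE 0.43, adjusted p 0.00439). Cd8b1, a chain of the CD8 coreceptor, had 0 and 2 UMIs at 37C and 4 and 8 at 4C (-4.76, adjusted p 0.00695). The receptor gene Trbc2 had 230 and 179 CPM at 37C and 603 and 857 at 4C (-1.76, SE 0.35, adjusted p 0.00957). Ccl5, a chemokine of cytotoxic cells, had 455 and 271 at 37C and 689 and 2436 at 4C (-2.07, adjusted p 0.0106). The 2 libraries at 4C were further apart in Gzma and Ccl5 than in Ptprcap, as were their NK shares of 8.82% and 25.9%.

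The other genes of the lower side with the lowest p were Selplg, a selectin ligand, Gimap4, a GTPase of lymphocyte survival, the translation inhibitor Pdcd4, the class I gene H2-Q7, the chemokine receptor Cxcr6 and the signalling adaptor Hcst. Further called genes were Gimap3, Gimap7, Tmsb4x, Mbnl1, Cd7, Trbc1, Il18r1, Thy1, Cnot6l, Il16, Coro1a, Fmnl1, Lat and Socs1. By list, 3 of 14 T-cell markers were lower (Cd8b1, Trbc1 and Trbc2), against 0.796% of all genes, with a median of -1.78. Of 6 NK-cell markers Gzma was lower, with a median of -1.81, and of 7 Gimap GTPases 3 were lower, with a median of -2.33. Without 4C library B 0 members of these lists were called, and the medians were -1.36 for T-cell markers, -0.36 for NK-cell markers (3 of 8 positive) and -1.37 for Gimap GTPases. Without 37C library A 3 of 4 NK-cell markers were lower, with a median of -2.69, and without 37C library B the median was -1.22. Cd3e had a log2 fold change of -1.40 (adjusted p 0.303) and Cd8a one of -2.65 (adjusted p 0.281). Socs1, a feedback inhibitor of cytokine signalling, was the called member among 19 other rapidly decaying transcripts, and the list's median was -0.60.

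When every library was given the same cell type weights (levels per type averaged with the same proportions, limma on log2 of the value plus 10), 1 gene was called, Arg1, with an adjusted p of 0.000126. T-cell markers then had a median log2 difference of 0.05 and NK-cell markers one of 0.03, while macrophage markers had a median of 2.05. This weighting rests on 1 and 5 macrophages at 4C. With macrophages left out of the sums, 11 genes were higher and 31 lower among 2822, and Ccl2 was among the higher ones (log2 fold change 4.39).

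**Figure D3:**
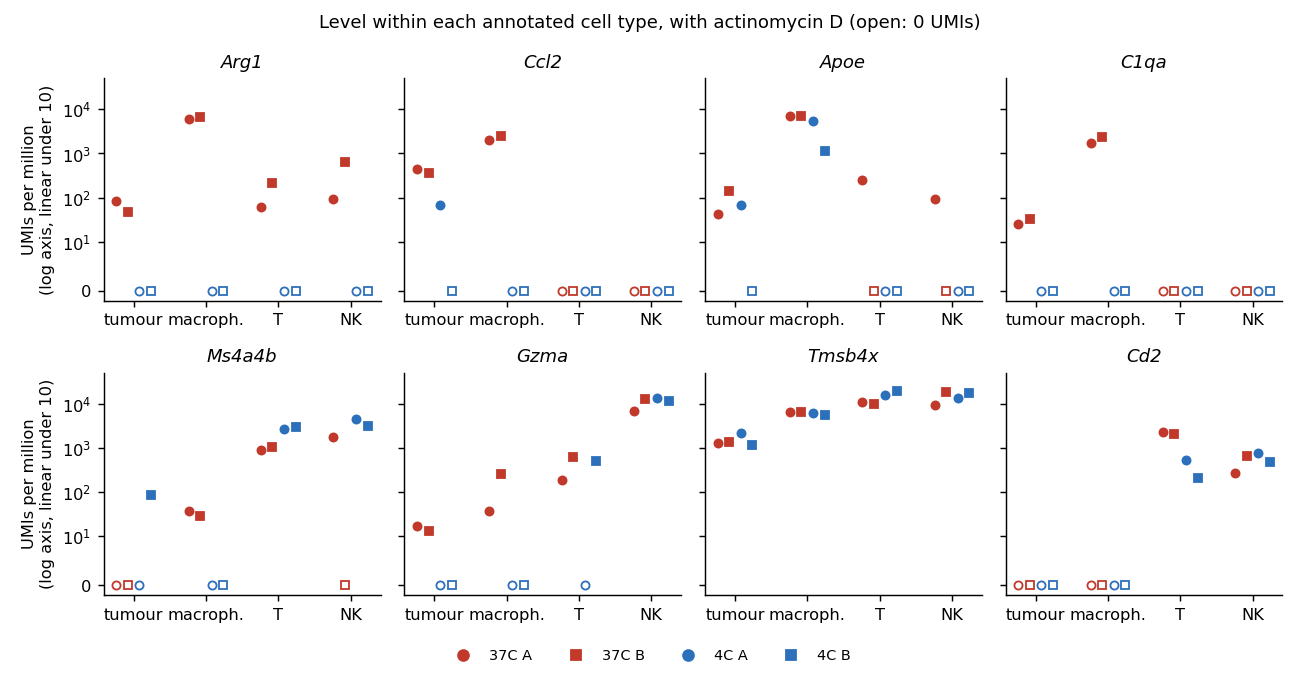
CPM within each annotated cell type for 8 genes, 1 point per library (circles A, squares B, red 37C, blue 4C, open symbols 0 UMIs), on an axis that is logarithmic above 10 and linear below. Arg1 and C1qa are at 0 in every type at 4C, Gzma overlaps between temperatures within NK cells, and Cd2 is higher at 37C within T cells.

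Within cell types the picture was sparser. In T cells, with 11 and 10 cells at 37C and 16 and 20 at 4C, 230 genes could be tested and Cd2 was called (0.435%), higher at 37C. Cd2, an adhesion receptor of T cells, had 38 and 20 UMIs at 37C (2332 and 2107 CPM) and 3 and 2 at 4C (530 and 207 CPM), a log2 fold change of 2.73 (SE 0.53, adjusted p 0.0218). It was seen in 16 of 21 T cells at 37C and 4 of 36 at 4C, at median depths of 918 and 327.5 UMIs. In NK cells it was seen in 3 of 10 and 5 of 17. The adjusted p of Cd2 was above 0.05, and Cd2 no longer called, when any 1 of the 4 libraries was left out (0.0645 to 0.214). T-cell markers as a list had 0 of 9 called in T cells, with a median of 0.30 against 0.03 for all 230 genes.

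The next genes in T cells missed the threshold, each with an adjusted p of 0.0516. Mcl1, a short-lived survival factor of the BCL2 family, had 1 and 1 UMIs at 37C and 5 and 15 at 4C, a ratio of 0.0594 with a counting interval of 0.00673 to 0.245. Ms4a4b had 920 and 1053 CPM in T cells at 37C and 2652 and 3000 at 4C (-1.52). Tmsb4x, the actin-binding thymosin, had 10980 and 10110 at 37C and 15560 and 19760 at 4C (-0.74). The groups did not overlap in any of them, which held for 24.8% of the 230 genes in the higher and 23.0% in the lower direction. Trbc2 went the other way in T cells (0.21, adjusted p 0.846), as did Cd3e (0.44, adjusted p 0.751).

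In tumour cells, with 55 and 76 cells at 37C and 14 and 15 at 4C, 1 of 1756 genes was lower (0.0569%) and 0 were higher in edgeR's quasi-likelihood test, with 140 at an unadjusted p under 0.05 and 0 called by DESeq2. The lower gene was Slpi, a secreted inhibitor of leukocyte proteases, with 303 and 544 UMIs at 37C (2567 and 3625 CPM) and 126 and 126 at 4C (8423 and 5353 CPM), a log2 fold change of -1.08 (SE 0.21, adjusted p 0.00654). It was no longer called without 37C library A (log2 fold change -0.82, adjusted p 0.223), without 4C library A (-0.59, 0.632) or without a filter (-0.50, 0.740). Ccl2 had 53 and 54 UMIs in tumour cells at 37C and 1 and 0 at 4C, a ratio of 15.4 with a counting interval of 2.7 to 613, and missed the threshold (adjusted p 0.086). It was seen in 33 of 131 tumour cells at 37C and in 0 of 31 T cells and NK cells there, at median depths of 918 UMIs in T cells and 1081.5 in NK cells against 1557 in tumour cells. The macrophage markers made up 0.0474% and 0.0640% of the UMIs of tumour cells at 37C and 0.0134% and 0.00425% at 4C, so they were higher at 37C in tumour cells as well, and their part in the Ccl2 values was not tested. Krt8 had 491 and 433 CPM at 37C and 334 and 297 at 4C (0.60, adjusted p 0.764).

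With the inhibitor present 0 of 26 tested immediate-early genes (33 members) were called in either direction in the sum over annotated cells, 13 of 26 had a positive log2 fold change, and the median was -0.03. The list made up 0.283% and 0.334% of annotated UMIs at 37C and 0.345% and 0.298% at 4C, so the groups overlapped. Without inhibitor the immediate-early genes were at 0.856% and 0.739% at 37C and at 0.252% and 0.261% at 4C, and 9 of 26 rose (0.973% of all genes) and 0 fell (0.0885%). In tumour cells with inhibitor 0 of 16 were called, with a median of 0.54 against 0.03 for all genes, and without inhibitor 8 of 16 rose (1.37%) and 0 fell (0.740%). Single members were above 0: Jun had 51 and 49 UMIs at 37C and 0 and 4 at 4C (2.19, SE 0.61, adjusted p 0.0725), and Fos had 38 and 71 against 2 and 3 (1.98, SE 0.62, adjusted p 0.134). Under alternatives Fos was called, without 37C library A (2.40, adjusted p 0.018), without macrophages (2.39, 0.0459) and without a filter (2.32, 0.0152), where 2 of 31 immediate-early genes were higher. Egr1 had 4 and 14 against 2 and 1 (0.11, adjusted p 0.978), Atf3 13 and 13 against 0 and 1 (2.17, adjusted p 0.372) and Nr4a1 12 and 6 against 0 and 0. Ier3 was at -0.39 (adjusted p 0.828). Of 21 inflammatory NF-kB targets Ccl2 and Ccl7 rose and Ccl5 fell, with a median of 0.74. Nfkbia, the feedback inhibitor of NF-kB, was at 0.43 (adjusted p 0.712), and Cxcl1, a neutrophil attractant, had 11 and 41 UMIs against 1 and 0 (3.14, adjusted p 0.266).

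Heat shock genes had 0 of 9 called and a median of 0.65, and Hspa1b, an inducible chaperone, was at 0.44 (adjusted p 0.856). Cirbp, induced by mild cold, was at -0.47 (adjusted p 0.856), with 12 and 11 UMIs at 37C and 1 and 5 at 4C. The nuclear RNA Malat1 had 85 and 16 UMIs at 37C and 3 and 5 at 4C (1.20, adjusted p 0.502).

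Whether the temperature effect differed with and without the inhibitor was tested as an interaction. In all annotated cells 0 of 3391 genes were called by edgeR's quasi-likelihood test and 0 by DESeq2, with 250 at an unadjusted p under 0.05 in edgeR and a smallest adjusted p of 0.0663, that of Arg1. Immediate-early genes had 3 of 26 positive interaction terms and a median of -1.75, against 0.08 for all genes. In tumour cells 0 of 1756 were called, the smallest adjusted p was 0.0694 (Mgst3, a glutathione transferase), and 1 of 16 immediate-early genes was positive, with a median of -2.0. The 5 genes with the lowest p among positive terms were Arg1, C1qc, Pdia6 (1.92), C1qb and Il18bp, and among negative terms Cd8b1 (-4.80), Tnfaip3 (-3.42), Mgst3 (-3.68), Ms4a4b (-2.40) and Trbc2 (-1.91). Other than Arg1 each of these had an adjusted p of 0.37. C1qc, C1qb, Arg1 and Il18bp had 0 UMIs at 4C with inhibitor, so the size of their terms depends on the prior count and is not given.

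The same contrasts were fitted to the sum over all listed barcodes, annotated or not, which adds the UMIs of small and of very large barcodes. Here 367 of 7515 genes were higher (4.88%) and 428 lower (5.70%) with inhibitor. The interaction called 13 genes higher (0.173%) and 74 lower (0.985%), where lower means a temperature effect with inhibitor below that without it. Of 29 immediate-early genes, 9 were called lower and 0 higher in this difference (Fosl2, Junb, Ier3, Nr4a1, Dusp2, Dusp5, Btg2, Klf2 and Klf6), with a median of -1.54 against 0.06. Of 26 inflammatory targets, 7 were lower (Nfkbia, Tnfaip3, Cxcl2, Ccl3, Ccl4, Ccl5 and Csf2), with a median of -1.43. T-cell markers had 6 of 14 lower and NK-cell markers 2 of 9 in the same difference, and their part in the result was not tested. These markers made up 0.0769% and 0.0676% of all UMIs at 37C and 0.454% and 0.411% at 4C with inhibitor, and 0.179%, 0.137%, 0.287% and 0.297% without it, for the T-cell markers.

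Some early genes rose at 37C without inhibitor and were near 0 with it. Nr4a1, a nuclear receptor of the early response, had 30 and 29 UMIs over all barcodes at 37C and 3 and 4 at 4C with inhibitor, a log2 fold change of -0.05. Without inhibitor it had 128 and 79 against 2 and 3, a change of 3.87, and the difference was -3.92 (SE 0.97, adjusted p 0.0331). Nfkbia was at -0.10 with and 1.84 without inhibitor (difference -1.94, SE 0.37, adjusted p 0.00422). Ier3 was at 0.04 and 1.73 (adjusted p of the difference 0.0274), and Cxcl2, a chemokine of neutrophils, at 0.23 and 3.20 (0.00945). Others fell at 37C with inhibitor. Tnfaip3, a brake on NF-kB with an unstable RNA, was at -2.54 with and 0.76 without inhibitor (difference -3.30, SE 0.43, adjusted p 5.07e-05). Dusp2 and Dusp5, phosphatases that switch off MAP kinases, were at -3.11 and -2.74 with inhibitor and at 0.17 and 0.74 without.

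Fos, Fosb and Jun, which form the AP-1 factor, rose at 37C with inhibitor as well over all barcodes. In the same sums tumour epithelial markers were at 0.283% and 0.311% of UMIs at 37C and 0.208% and 0.203% at 4C. Of these markers 3 of 4 tested were higher (Krt8, Krt18 and Krt7, median 1.22), against 4.88% of all genes. Lower were 13 of 14 T-cell markers and 9 of 9 NK-cell markers, against 5.70% of all genes. Fos was seen in 47 of 131 annotated tumour cells and 7 of 57 macrophages at 37C. The part of these shifts in the rise of Fos, Fosb and Jun and in the fall of Dusp2, Dusp5, Klf2 and Tnfaip3 was not tested. Fos had 250 and 190 UMIs at 37C and 5 and 9 at 4C, a log2 fold change of 1.84 (SE 0.35, adjusted p 0.000441). Fosb had 149 and 72 against 2 and 0 (3.59, SE 0.73, adjusted p 0.000958), and Jun 204 and 146 against 5 and 7 (1.72, SE 0.37, adjusted p 0.0016). Their differences from the effect without inhibitor were -1.54 for Fos (adjusted p 0.217), -2.77 for Fosb (0.596) and -0.63 for Jun (0.757), so no difference was called. Ccl2 (2.81) and Ccl7 (2.40) also rose with inhibitor, and their differences of 0.77 and -0.45 had adjusted p of 0.577 and 0.877. With inhibitor 3 of 29 immediate-early genes rose (Fos, Fosb and Jun), against 4.88% of all genes. Of the same 29, 5 fell (Fosl2, Dusp2, Dusp5, Btg2 and Klf2), against 5.70%. The list's median was 0.31, against 0.07 for all genes. Without it 18 rose (2.73% of all genes) and 0 fell (1.92%), with a median of 1.65.

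**Figure D4:**
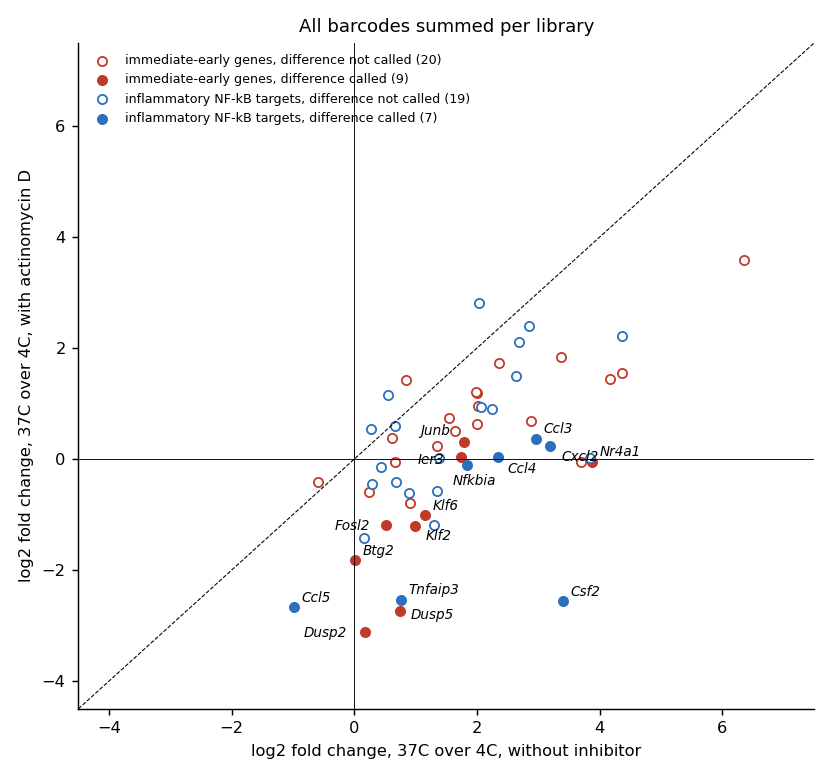
Log2 fold change of 37C over 4C with actinomycin D against that without, over all barcodes, for immediate-early genes (red) and inflammatory NF-kB targets (blue); filled points are genes whose difference between the effects was called, and the dashed line marks equal effects. The 9 and 7 filled points lie below the line, and Fosb lies furthest to the right at 6.36 without and 3.59 with inhibitor.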

How the data were processed

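Droplet single-cell libraries with 3' tags were made with the SureCell kit, 2 per condition. The authors deposited raw counts (UMIs per gene and barcode), and a table of the library and cell type of each annotated cell, with no account of how types were assigned in the sources used here. Per the submitters' processing notes the tools were STAR 2.7.1a, featureCounts 1.6.0, UMI-tools, SAMtools and Seurat, with GRCm38. Of 17580 gene IDs, 17520 had a symbol. The log-normalised table was not used.

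Counts were summed per library and cell type and tested with edgeR 4.0.16's quasi-likelihood test (TMM scaling, filterByExpr, Benjamini-Hochberg adjustment, threshold 0.05) in 1 model of 4 groups and 8 libraries, since 2 against 2 leave little spread to estimate. A cell type was tested where each of the 4 libraries held at least 10 cells. Alternatives used DESeq2 1.42.0, limma 3.58.1 (R 4.3.3), other filters and scalings, and left out libraries or cells. The code was tested on simulated data. Shares, levels, motifs and plots used Python 3.11.15, NumPy 2.4.6, SciPy 1.17.1, pandas 2.3.3 and matplotlib 3.10.9. A gene with 0 counts in a group has a bound from a floor of 3 counts over that group.

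Named genes were the 12 with the lowest p in each direction (5 in the other fits) and a short list of genes, with predicted genes left unnamed; genes named as list members are given with their list. The members and lists were chosen with earlier results of these data known. The letters A and B mark aliquots, and their deviations correlated at -0.028 across suspensions, so they were not taken as pairs.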

Additional observations from a re-analysis of the deposited data

Results flagged for a closer look

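Over all barcodes the temperature effect differed with and without the inhibitor in 13 genes in the higher and 74 in the lower direction, by edgeR's quasi-likelihood test of the difference. Among the higher, the difference was 1.91 for Arg1, 1.68 for Lyz2, 2.18 for Cp (ceruloplasmin, a copper carrier) and 2.40 for Ifi44, an interferon-induced gene. Plvap, a protein of endothelial fenestrae, had a fitted difference of 8.68, with 83 and 57 UMIs at 37C and 0 and 0 at 4C with inhibitor, so this value depends on the prior count. Among the lower, the difference was -1.86 for Ms4a4b, -1.69 for Ccl5, -3.30 for Tnfaip3 and -2.19 for Klf2. Klk1 had -8.41, with 1 and 0 UMIs at 37C and 1 and 19 at 4C with inhibitor. Of those 19, a pair of cells annotated as macrophages in 4C library B held 3 and 14, so the value rests largely on that pair.

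At 37C with inhibitor 65 barcodes without annotation held over 5000 UMIs, 41 in library A and 24 in library B, against 0 at 4C. Without inhibitor there were 16 and 23 at 37C, with 30.0% and 34.7% of the UMIs of their libraries, and 1 and 0 at 4C. Those with inhibitor held 43.1% and 30.6% of the UMIs of their libraries, and no annotated cell at 37C exceeded 4963 UMIs. Tumour epithelial markers made up 0.371% and 0.367% of their UMIs, and macrophage markers 0.0272% and 0.0095%.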

How the results depend on the processing

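Over all annotated cells, 34 higher and 27 lower became 16 and 16 with DESeq2's Wald test, 10 and 11 with libraries thinned to the smallest sum (418 genes tested) and 367 and 428 over all barcodes. Without a filter 109 were higher, without macrophages 11, and with equal cell type weights 1 was higher and 0 lower. Leaving out 1 library gave 9 to 46 higher and 1 to 34 lower. In tumour cells 0 higher became 23 without a filter and 0 to 9 without 1 library; 1 lower became 0 with DESeq2, without a filter or with the 4 libraries alone, 2 after thinning and 0 to 2 without 1 library. In T cells 1 higher became 0 with DESeq2, after thinning or without any 1 library, and 2 without a filter or with the 4 libraries alone, where 2 were lower. With the replicate block T cells had 6 higher and 5 lower, all annotated cells 44 and 29 with 60 of 61 calls kept, and the difference of the effects 2 higher; the letters are not pairs. The difference had 10 higher and 4 lower without a filter, 13 and 74 over all barcodes and 0 to 3 in each direction without 1 library. The causes were not tested.

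Signs turned without macrophages for Fcer1g (-0.52) and Ctss (-0.02); with equal weights for Trbc2 (0.06), Ccl5 (0.05), Gimap3 (0.08), Thy1 (0.13), Egr1 (-0.78), Cd3e (0.63) and Cirbp (0.05); and over all barcodes for Mgst3 (0.01), Nr4a1 (-0.05), Ier3 (0.04), Nfkbia (-0.10), Hspa1b (-0.04) and Malat1 (-0.65). Leaving out 1 library, Egr1 ranged from -0.54 to 1.16 Ier3 from -1.25 to 0.37, Cirbp from -0.76 to 0.78 and Malat1 from -0.40 to 1.94. Of 1173 alternatives for 96 single-gene values, 883 kept direction and side of the threshold and 20 turned sign. The shallow 4C libraries and the 6 macrophages there limit all values within types.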
